A study of Mus musculus with 20 samples.

Results

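Interferon-induced antiviral effector genes are the genes that cells switch on in response to interferon and whose products block steps of virus growth, modify other proteins or signal to other cells. A named list of 50 mouse genes was followed over 7 time groups. Each gene was represented by the probe set that carried its symbol alone and had the highest mean over the 20 arrays. Of the 50 genes, 44 had such a probe set, among 17097 genes with one on the array. Of these, 41 passed a filter on low signal and were tested, among 12944 tested genes in all. Isg15, Oas1a, Bst2, Apol9b, Ifi44 and Ogfr had no probe set carrying their symbol alone and are not analysed here. Mx1, Ifi27l2a and Sp100 had a probe set whose mean stayed under the filter in every group.

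Expression was measured in mouse embryonic fibroblasts immortalized with SV40 and carrying a double knockout of Ampkα1 and Ampkα2, the catalytic subunits of the energy-sensing kinase AMPK. All 20 arrays, the controls included, came from these cells, so no array with AMPK was used here. The cells were given 1 mM AICAR, a nucleoside that cells convert to an AMP mimic and that is widely used to activate AMPK, for 1, 2, 4, 8, 12 or 24 h, and the controls were taken at 0 h without AICAR. There were 3 arrays in each group and 2 at 8 h, on the Affymetrix Mouse MG-430 PM array strip, and the study compared each time in AICAR with 0 h. Hours in AICAR and hours since the 0 h harvest changed together and cannot be told apart. The labels do not say whether replicates were separate cultures or whether the cells were 1 clone. The p-values therefore reflect array-to-array spread alone, possibly technical.

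The median log2 signal of an array was 5.16 to 5.32. A signal was called above background where it exceeded the 95th percentile of the 23 nonspecific control probe sets of its array, which lay between 4.71 and 5.13. This background was itself lower late, at 5.07 to 5.12 in the controls and 4.71 to 4.95 at 24 h, so a signal that did not change could pass it at 24 h alone. The log2 difference between the 3′ and 5′ probe sets of actin, a measure of RNA quality, was 0.38 to 0.46 in the controls and 0.50 to 0.56 at 24 h, without overlap. The actin difference was 0.44 to 0.69 at 4 h and 0.43 to 0.65 at 8 h. That of Gapdh overlapped, at 0.08 to 0.23 in the controls and 0.13 to 0.15 at 24 h. The part of these differences in the 24 h results was not tested. Prkaa1 gave 8.19 ± 0.06 (SD, n = 3) and Prkaa2 5.63 ± 0.12 (SD, n = 3) in the controls. Where these probes lie relative to the deletions was not known, so the signals check nothing. Of 14 fibroblast markers with a probe set, 11 were above background on all control arrays, and Col1a2, Thy1 and Lum were on none.

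Type I interferons bind a receptor that activates JAK kinases and a complex of transcription factors that binds the interferon-stimulated response element (ISRE) in the promoters of effector genes. Some of these genes can also be switched on by interferon regulatory factors acting directly, without interferon. The products include RNA-binding proteins that stop translation of viral RNA, enzymes that degrade or edit RNA, the ubiquitin-like ISG15 system, antiviral GTPases and chemokines that draw in immune cells.

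The element's core is described before the expression values, since it is the sequence that the effector genes are known to share. The promoters were searched after the fit was run, and the genes were listed with earlier results of these data known. The RefSeq promoter table (GRCm38.p6, 250 bases before to 50 after each start) matched 36 of the 50 genes, with 50 promoters. The core was searched as GAAANNGAAA on both strands, so that TTTC repeats are the same motif read from the other strand. It was found in 14 of the 36 genes (38.9%), against 1079 of all 27025 genes in the table (3.99%). The core of the gamma-activated sequence, TTCNNNGAA, was found in 8 of the 36 (22.2%), against 9.55% of all genes. The following stretches show the ISRE core, in capitals, in 5 of the 6 genes that held it and rose at least 2-fold at 24 h, and in Oas3, which had the core but no called rise.
Ifit1: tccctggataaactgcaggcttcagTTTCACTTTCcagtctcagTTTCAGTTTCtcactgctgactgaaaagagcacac
Ifit3: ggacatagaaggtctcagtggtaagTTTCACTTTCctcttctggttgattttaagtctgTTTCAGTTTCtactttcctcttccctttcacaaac
Apol9a: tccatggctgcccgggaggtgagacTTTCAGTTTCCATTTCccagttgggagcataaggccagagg
Rsad2: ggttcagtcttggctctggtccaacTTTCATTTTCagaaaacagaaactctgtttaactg
Cxcl10: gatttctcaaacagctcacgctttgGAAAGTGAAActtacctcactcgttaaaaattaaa
Oas3: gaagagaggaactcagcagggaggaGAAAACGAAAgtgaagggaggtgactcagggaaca

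These stretches are printed 5′ to 3′ on the strand of the gene. They lie at chr19:34640760-34640838 (plus strand) for Ifit1, chr19:34583348-34583441 (plus) for Ifit3 and chr15:77411099-77411164 (minus) for Apol9a. Those of Rsad2, Cxcl10 and Oas3 are chr12:26456538-26456597, chr5:92349068-92349127 and chr5:120777700-120777759, each on the minus strand. The first capital lies 104 bases upstream of the start in Ifit1, 156 in Ifit3, 120 in Rsad2, 213 in Cxcl10 and 75 in Oas3, and 105 or 59 in Apol9a, which has a pair of starts in the table. Ifit1 and Ifit3 each held 2 separate cores, and in Apol9a 2 cores overlap in 1 run of capitals. The stretch of Apol9a and that of its neighbour Apol9b were equal at 66 of 66 bases. Among the tested genes with a promoter in the table, the ISRE core was found in 6 of 18 whose measured rise was at least 2-fold at 24 h. It was found in 2 of 8 that rose by less and 1 of 3 that were not called. Dtx3l, Xaf1 and Samd9l, which rose more than 6-fold, had no match in this window. A match is a run of letters in this window and no evidence that a factor was bound.

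Few of the effector genes were called in the first 4 h, in either direction, more were higher at 8 and 12 h, and most were higher at 24 h. At 24 h, 36 of the 41 tested genes were higher than at 0 h and 0 were lower (limma, adjusted p under 0.05; 1, Ly6e, was lower at an unadjusted p under 0.05), where 25.8% of all tested genes were higher and 14.6% lower. Of the 41, 26 rose at least 2-fold by the measured difference (2.38% of all tested genes did so). Among them is Oasl2, whose controls were below background and for which only a rise of at least 1.66-fold is shown. The median difference of the 41 was 1.53 on the log2 scale and ranged from -0.41 to 4.99; over all tested genes the median was 0.01. More cells that express a gene and more of its RNA per cell (for a fall, fewer and less) cannot be told apart in these bulk samples.

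The filter lets a gene in through any group, so 5 genes (Ifit1, Oasl2, Ube2l6, Usp18 and Epsti1) were tested only because AICAR groups exceeded it. Of the 36 genes above the filter at 0 h already, 31 rose at 24 h. The matching share of all genes above the filter at 0 h is not given here, so this count stands without a comparison. With no filter, 36 of the 44 genes with a probe set rose and 1 fell, where 19.5% of all 17097 genes rose and 10.9% fell; the fall was that of Ifi27l2a (-0.24 ± 0.07 SE, limma adjusted p = 0.0164), which was not above background on any control array.

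The rise came late and in steps. At 1 h no tested effector gene was called in either direction by limma, and 0 had an unadjusted p under 0.05; 0.00773% of all tested genes were called higher and 0.471% lower. At 2 h again none was called, 1 (Cxcl10, lower) had an unadjusted p under 0.05, and 0.471% of all tested genes were higher and 0.997% lower. At 4 h 1 gene was higher and 2 were lower (5.18% and 6.9% of all tested genes), and at 8 h 6 were higher and 0 lower (7.49% and 2.84%). At 12 h 20 were higher and 0 lower, against 14.8% and 8.88%, with a median of 0.24. At least 2-fold higher was 1 gene, Apol9a, against 60 of all 12944 tested genes. At 12 h 1 gene (Ly6e) had an unadjusted p under 0.05 for a fall, and at 8 h none had. The first called rise was at 4 h for Znfx1, at 8 h for 6 genes, at 12 h for 13 and at 24 h for 16. Over the 7 times together, 35 of the 41 differed in limma's F test, where 48.4% of all tested genes did; Oas1b, Oas2, Oas3, Uba7, Ly6e and Slfn2 did not.

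**Figure D1:**
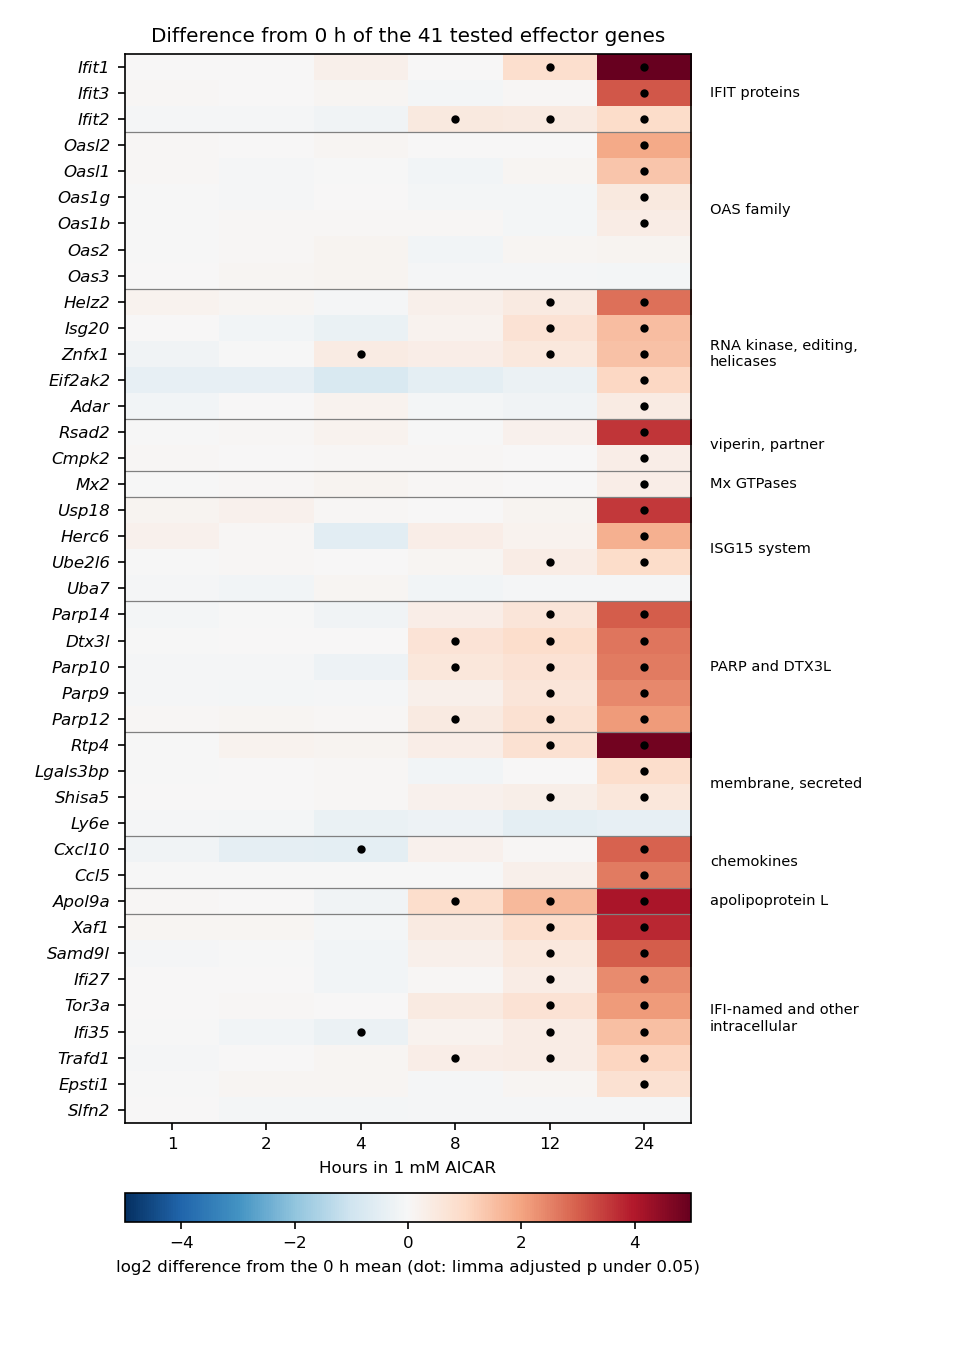
Log2 difference from the 0 h mean (colour) of the 41 tested effector genes, grouped by role, at 1, 2, 4, 8, 12 and 24 h in AICAR; a black dot marks a limma adjusted p under 0.05. The columns of 1 and 2 h hold no dot, that of 12 h holds 20 and that of 24 h holds 36, with differences from -0.41 (Ly6e) to 4.99 (Ifit1).

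The difference from 12 to 24 h does not use the control arrays, but its SE and p-value come from the fit over all arrays. In a fit of the 12 and 24 h arrays alone, the calls of Oas1b, Cmpk2, Mx2 and Shisa5 were lost. Across it 36 of the 41 rose and 0 fell (limma; 0 fell at an unadjusted p under 0.05 too), where 12.6% of all tested genes rose and 7.3% fell, and the median difference was 1.34. The same 36 genes were those called at 24 h against 0 h, and all 20 genes called at 12 h were among them. Both comparisons with 24 h use the same 24 h arrays and the same fit, so their match is no separate support. Without single arrays in turn, the call from 12 to 24 h was lost for Oas1b (without AICAR 12h replicate 2, 0.34). That of Cmpk2 was lost without AICAR 12h replicate 1, AICAR 12h replicate 2 or AICAR 24h replicate 2 (0.18 to 0.36 over all single-array fits). That of Mx2 was lost without AICAR 12h replicate 2 or AICAR 24h replicate 2 (0.22 to 0.43 over all single-array fits).

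The IFIT proteins bind viral RNA with unmodified or incompletely capped ends and block its translation. All 3 rose at 24 h. Ifit1 gave log2 signals of 4.62, 4.72 and 4.85 at 0 h, 5.41, 5.66 and 5.64 at 12 h, and 9.44, 10.01 and 9.70 at 24 h. Its 11 arrays of 1 to 8 h lay between 4.55 and 5.11 (median 4.85), so that the 12 h arrays stood above all earlier ones and the 24 h arrays far above those. The difference was 0.84 ± 0.13 (SE, limma adjusted p = 0.000179) at 12 h and 4.99 ± 0.13 (adjusted p = 1.58e-14) at 24 h. Ifit1 was not above background on any control array, so its fold is a lower bound, at least 24.7-fold at 24 h; bounds of this kind set the 24 h mean against the higher of background and the gene's own signal on each control array.

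Ifit3 showed no step at 12 h. It gave 5.34, 5.26 and 5.18 at 0 h, 5.11 to 5.43 (median 5.28) over the 1 to 8 h arrays, 5.25, 5.42 and 5.28 at 12 h, and 8.19, 8.64 and 8.28 at 24 h. The 12 h arrays overlapped the controls and the 24 h arrays did not; the 24 h difference was 3.11 ± 0.10 (SE, limma adjusted p = 1.01e-13), 8.63-fold. Ifit2 moved earlier and less. Its signals were 8.26, 8.19 and 8.04 at 0 h, 8.74 and 8.54 at 8 h, 8.70, 8.65 and 8.50 at 12 h, and 9.07, 9.21 and 8.91 at 24 h. The 8, 12 and 24 h arrays all lay above the controls, with differences of 0.48 ± 0.11, 0.46 ± 0.10 and 0.90 ± 0.10 (SE; limma adjusted p = 0.00849, 0.00199 and 7.1e-07).

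The OAS enzymes make the messenger 2′-5′-oligoadenylate that activates the ribonuclease RNase L. Oasl1 and Oasl2 encode OAS-like proteins. Of 6 tested genes 4 rose at 24 h, 2 of them at least 2-fold by the measured difference, and none was called at 12 h. Oasl2 gave 3.88, 3.97 and 3.96 at 0 h, 3.84 to 4.15 (median 3.98) from 1 to 8 h, 3.94, 3.94 and 4.02 at 12 h and 5.67, 6.15 and 5.65 at 24 h. Only its 24 h arrays were above background, and the measured difference of 1.89 ± 0.11 (SE, limma adjusted p = 3.26e-10) stands for a rise of at least 1.66-fold. Oasl1, whose protein lowers translation of Irf7 messenger RNA, gave 5.52, 5.58 and 5.51 at 0 h, 5.31 to 5.66 (median 5.50) from 1 to 8 h, 5.50, 5.65 and 5.71 at 12 h and 6.68, 7.05 and 7.01 at 24 h. The 24 h arrays stood apart and the 12 h arrays overlapped the controls, with a 24 h difference of 1.37 ± 0.09 (SE, limma adjusted p = 1.35e-09).

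The other members of the family differed less. Oas1g rose by 0.49 ± 0.09 (SE, limma adjusted p = 0.000249) and Oas1b by 0.37 ± 0.12 (adjusted p = 0.0176), and the call of Oas1b was lost without control 0h replicate 1 or AICAR 24h replicate 3 (0.30 to 0.44 without single arrays). Oas1g and Oas1a are close copies, and whether the Oas1g probe set also reads Oas1a was not tested. Oas2 gave 5.0, 5.0 and 5.15 at 0 h and 5.06, 5.15 and 5.31 at 24 h, with overlap and near background (difference 0.12 ± 0.11 SE, limma adjusted p = 0.432). Its other arrays lay between 4.83 and 5.38 from 1 to 8 h and at 5.0, 5.14 and 5.29 at 12 h. Oas3 gave 5.26, 5.31 and 5.50 at 0 h, 5.19 to 5.71 (median 5.37) from 1 to 8 h, 5.16, 5.13 and 5.59 at 12 h and 5.07, 5.23 and 5.47 at 24 h. The groups of Oas3 overlapped at every time, and its 24 h difference was -0.10 ± 0.15 (SE, limma adjusted p = 0.657), although the promoter shown above holds the ISRE core.

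Eif2ak2 encodes the kinase PKR, which halts translation when it binds double-stranded RNA, Adar edits such RNA, and Helz2, Znfx1 and Isg20 encode RNA helicases and an exonuclease. All 5 rose at 24 h, 4 of them at least 2-fold. Helz2 gave 5.11, 5.25 and 4.86 at 0 h, 4.92 to 5.44 (median 5.22) from 1 to 8 h, 5.46, 5.88 and 5.29 at 12 h and 7.69, 8.03 and 7.73 at 24 h. Its 12 h arrays lay just above the controls, by 0.47 ± 0.14 (SE, limma adjusted p = 0.0197), and that call was lost without control 0h replicate 3 or AICAR 12h replicate 2 (0.30 to 0.59 without single arrays). The 24 h arrays stood far above, by 2.74 ± 0.14 (SE, adjusted p = 6.94e-11), and only 1 of the 3 control arrays was above background.

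Isg20 climbed in 2 steps of like size. It gave 7.15, 7.12 and 6.88 at 0 h, 6.64 to 7.27 (median 7.02) from 1 to 8 h, 7.98, 7.77 and 7.61 at 12 h and 8.66, 8.72 and 8.36 at 24 h. The 12 h arrays were all above the earlier ones and the 24 h arrays all above those, with differences from 0 h of 0.74 ± 0.13 and 1.53 ± 0.13 (SE; limma adjusted p = 0.000456 and 4.67e-08). Eif2ak2 was the most scattered gene of the list, with 7.44, 7.42 and 7.10 at 0 h, 6.08 to 7.37 (median 7.03) from 1 to 8 h, 7.19, 7.45 and 6.43 at 12 h and 8.61, 8.37 and 8.10 at 24 h. Most of its early arrays lay below the controls without passing the test (at 4 h -0.77 ± 0.29 SE, limma adjusted p = 0.0948), and its 24 h arrays lay above them (1.04 ± 0.29, adjusted p = 0.00712). Adar rose by 0.39 ± 0.11 (SE, limma adjusted p = 0.00794) at 24 h.

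Znfx1 was the only effector gene called higher before 8 h. Its signals were 5.42, 5.22 and 5.43 at 0 h, 5.56, 5.97 and 5.73 at 4 h, 5.75 and 5.65 at 8 h, 5.90, 6.08 and 5.69 at 12 h and 6.79, 6.86 and 6.81 at 24 h, with 5.12 to 5.34 over the 1 and 2 h arrays. The 4, 8, 12 and 24 h arrays were above all controls. The differences were 0.40 ± 0.10 at 4 h, 0.34 ± 0.11 at 8 h (not called, limma adjusted p = 0.0562), 0.53 ± 0.10 at 12 h and 1.46 ± 0.10 at 24 h (SE; adjusted p = 0.0135, 0.000737 and 3.64e-09 at the other times). The 4 h call was lost without control 0h replicate 2 (0.29 to 0.49 over all such fits) or AICAR 4h replicate 2.

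Rsad2 encodes viperin, which makes a nucleotide that ends viral RNA chains, and Cmpk2 beside it encodes a kinase that supplies viperin's substrate. Rsad2 gave 5.19, 5.35 and 5.56 at 0 h, 5.16 to 5.83 (median 5.35) from 1 to 8 h, 5.48, 5.56 and 5.75 at 12 h and 8.59, 9.17 and 9.09 at 24 h. The 12 h arrays overlapped the controls and the 24 h arrays stood clear of all others, by 3.58 ± 0.17 (SE, limma adjusted p = 3.47e-11). Cmpk2 gave 4.86, 4.90 and 4.95 at 0 h, 4.85 to 5.08 (median 4.93) from 1 to 8 h, 4.76, 4.96 and 5.11 at 12 h and 5.10, 5.35 and 5.20 at 24 h. Its 24 h arrays lay above their own background and the controls below theirs, and the lowest 24 h array lay within the background range of the controls, so the measured 0.31 ± 0.08 (SE, limma adjusted p = 0.00568) stands for at least 1.09-fold; another probe set of Cmpk2, described with the other probe sets, moved far more.

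Of the Mx GTPases, which trap viral nucleocapsids, Mx2 gave 5.79, 5.77 and 5.79 at 0 h, 5.74 to 6.0 (median 5.85) from 1 to 8 h, 5.75, 5.71 and 5.94 at 12 h and 5.93, 6.36 and 6.10 at 24 h. Its 24 h arrays lay above the controls by 0.35 ± 0.09 (SE, limma adjusted p = 0.00362) and overlapped those of 1 to 8 h, and the difference was 0.23 without AICAR 24h replicate 2. Mx1 stayed below background, with means of 3.67 ± 0.09 at 0 h and 3.83 ± 0.11 at 24 h (SD, n = 3 each).

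ISG15 is joined to target proteins by the enzymes encoded by Uba7, Ube2l6 and Herc6, and Usp18 removes it and also dampens the interferon receptor. Of these 4 tested genes 3 rose at 24 h. Usp18 gave 4.28, 4.23 and 4.52 at 0 h, 4.20 to 4.90 (median 4.44) from 1 to 8 h, 4.39, 4.41 and 4.60 at 12 h and 7.57, 8.08 and 8.00 at 24 h. It was not above background on any control array and rose at 24 h alone, by a measured 3.54 ± 0.15 (SE, limma adjusted p = 5.02e-12), at least 6.95-fold. Herc6, the ligase that is known to act for ISG15 in mice, gave 6.45, 6.49 and 6.13 at 0 h, 5.54 to 6.89 (median 6.51) from 1 to 8 h, 7.03, 6.59 and 6.0 at 12 h and 8.04, 8.44 and 7.90 at 24 h. The 12 h arrays straddled the controls and the 24 h arrays were above them all, by 1.77 ± 0.22 (SE, limma adjusted p = 3.77e-06).

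Ube2l6 rose in both late groups, by 0.38 ± 0.10 at 12 h and 0.91 ± 0.10 at 24 h (SE; limma adjusted p = 0.00696 and 5.54e-07), from controls below background, which stands for at least 1.43-fold at 24 h. Uba7, the first enzyme of the chain, gave 7.0, 6.97 and 7.30 at 0 h, 6.71 to 7.38 (median 7.03) from 1 to 8 h, 6.94, 6.56 and 7.54 at 12 h and 6.87, 6.88 and 7.37 at 24 h. The groups of Uba7 overlapped throughout on this probe set, with a 24 h difference of -0.05 ± 0.20 (SE, limma adjusted p = 0.896).

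**Figure D2:**
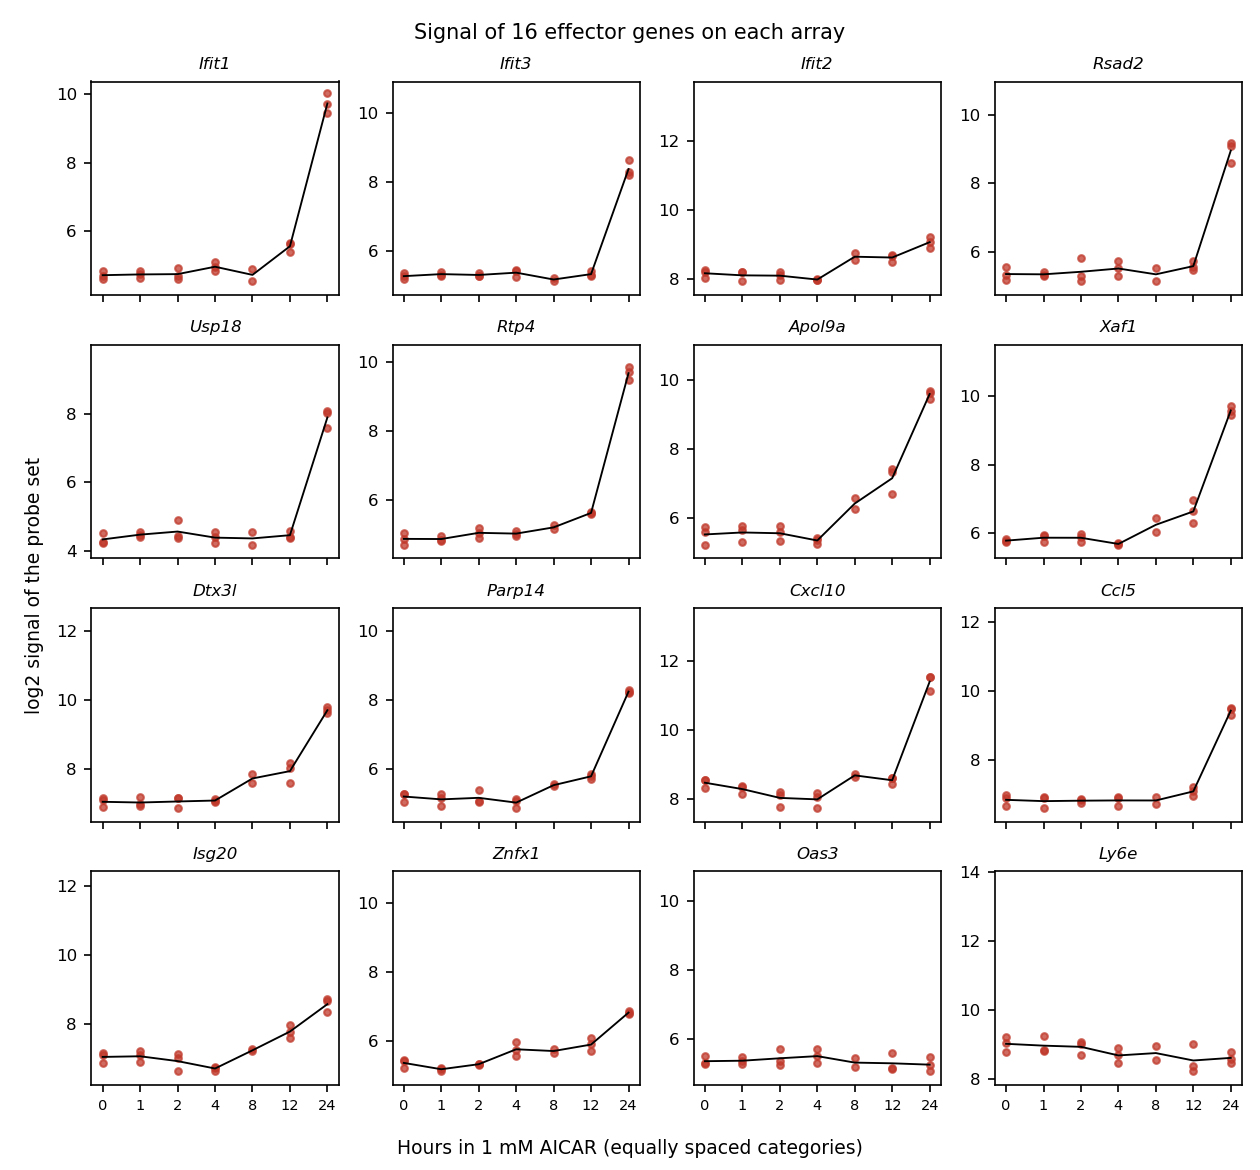
Log2 signal of 16 effector genes on each of the 20 arrays (red points) against hours in AICAR, drawn as equally spaced categories; the black line joins the group means, and each panel spans the same number of log2 units from its own lowest value. Apol9a, Dtx3l and Ifit2 lie above the controls at 8, 12 and 24 h, Ifit1 at 12 and 24 h, and Ifit3, Rsad2, Usp18 and Cxcl10 lie far above them at 24 h alone, while the points of Oas3 overlap at all times.

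The ADP-ribosyltransferases PARP9, PARP10, PARP12 and PARP14 and the ubiquitin ligase DTX3L, the partner of PARP9, are all encoded by interferon-induced genes. All 5 genes rose at 12 h and all 5 rose at least 2-fold at 24 h, with 24 h differences between 2.15 and 3.05 and a median of 2.61; Dtx3l, Parp10 and Parp12 were called at 8 h too. Parp14 gave 5.04, 5.27 and 5.26 at 0 h, 4.86 to 5.56 (median 5.12) from 1 to 8 h, 5.83, 5.79 and 5.71 at 12 h and 8.28, 8.23 and 8.20 at 24 h. Dtx3l gave 7.16, 7.10 and 6.89 at 0 h, 7.87 and 7.59 at 8 h, 8.18, 8.04 and 7.60 at 12 h and 9.63, 9.79 and 9.71 at 24 h. For both genes the 8, 12 and 24 h arrays lay above every control. The differences of Dtx3l were 0.68 ± 0.14, 0.89 ± 0.13 and 2.66 ± 0.13 at these times (SE; limma adjusted p = 0.00525, 6.53e-05 and 3.47e-11), and that of Parp14 was 3.05 ± 0.11 at 24 h (adjusted p = 3.56e-13).

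Parp10 gave 5.76, 5.84 and 5.58 at 0 h, 6.43 and 6.12 at 8 h, 6.54, 6.61 and 6.16 at 12 h and 8.33, 8.42 and 8.24 at 24 h. Parp12 gave 7.98, 7.96 and 7.66 at 0 h, 8.35 and 8.31 at 8 h, 8.76, 8.68 and 8.46 at 12 h and 9.90, 10.11 and 10.03 at 24 h. Both genes rose without overlap with the controls from 8 h on, by 2.61 ± 0.15 for Parp10 and 2.15 ± 0.11 for Parp12 at 24 h (SE; limma adjusted p = 3.32e-10 and 8.58e-11). Parp9 rose by 0.61 ± 0.08 at 12 h and 2.41 ± 0.08 at 24 h (SE; adjusted p = 1.96e-05 and 1.15e-13).

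Of the membrane and secreted proteins, 3 of 4 tested genes rose. Rtp4, a receptor transporter that binds viral RNA replication sites, gave 5.03, 4.87 and 4.70 at 0 h, 4.80 to 5.26 (median 5.02) from 1 to 8 h, 5.64, 5.63 and 5.60 at 12 h and 9.48, 9.86 and 9.70 at 24 h. The 12 h arrays lay above all earlier ones, by 0.75 ± 0.10 over the controls (SE, limma adjusted p = 2.97e-05). At 24 h the difference was 4.81 ± 0.10 (SE, adjusted p = 2.52e-16), at least 24.1-fold since no control array was above background. Lgals3bp, a secreted galectin-binding protein, gave 5.12, 5.16 and 5.09 at 0 h, 4.85 to 5.49 (median 5.11) from 1 to 8 h, 5.17, 5.04 and 5.22 at 12 h and 6.03, 5.88 and 6.03 at 24 h. Only the 24 h arrays stood apart, by 0.86 ± 0.12 (SE, limma adjusted p = 1.49e-05). Shisa5 rose by 0.56 ± 0.07 (SE, adjusted p = 1.81e-06).

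Ly6e, a membrane-anchored protein that hinders the entry of several viruses, did not rise. It gave 9.22, 9.03 and 8.78 at 0 h, 8.44 to 9.25 (median 8.83) from 1 to 8 h, 8.36, 9.0 and 8.22 at 12 h and 8.76, 8.58 and 8.46 at 24 h. The 24 h arrays lay just below the controls, by -0.41 ± 0.19 (SE, limma adjusted p = 0.095), and those of 12 h overlapped them (-0.48 ± 0.19, adjusted p = 0.0714); neither passed the test as reported, and other settings under which it passed are given with the dependence on processing.

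The chemokines of the list draw in T cells and other leukocytes. Cxcl10, the ligand of CXCR3, gave 8.53, 8.54 and 8.31 at 0 h, 7.73, 8.16 and 8.04 at 4 h, 8.62 and 8.72 at 8 h, 8.59, 8.59 and 8.41 at 12 h and 11.12, 11.52 and 11.54 at 24 h, with 8.35, 8.33 and 8.13 at 1 h and 8.10, 8.19 and 7.77 at 2 h. The 2 and 4 h arrays lay below the controls, those of 12 h overlapped them and those of 24 h lay far above. It fell by 0.48 ± 0.13 at 4 h on the log2 scale (SE, limma adjusted p = 0.0218) and rose by 2.93 ± 0.13 at 24 h (adjusted p = 1.35e-11), 7.64-fold. The 4 h fall was lost without control 0h replicate 1, control 0h replicate 2 or AICAR 4h replicate 1 (-0.57 to -0.36 over all single-array fits). Ccl5, which attracts T cells and monocytes, gave 6.89, 6.98 and 6.67 at 0 h, 6.62 to 6.94 (median 6.88) from 1 to 8 h, 6.97, 7.21 and 7.10 at 12 h and 9.31, 9.51 and 9.49 at 24 h. Its 12 h arrays reached into the control range and its 24 h arrays did not, with 0.24 ± 0.11 (SE, limma adjusted p = 0.108) and 2.59 ± 0.11 (adjusted p = 4.01e-12).

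Apol9a, an interferon-induced member of the apolipoprotein L family, had the largest differences of the list at 8 and 12 h. It gave 5.75, 5.58 and 5.23 at 0 h, 6.58 and 6.26 at 8 h, 7.43, 7.33 and 6.71 at 12 h and 9.63, 9.70 and 9.47 at 24 h, with 5.25 to 5.77 over the 1, 2 and 4 h arrays. Each late group lay above the one before it. The differences were 0.90 ± 0.20, 1.63 ± 0.18 and 4.08 ± 0.18 (SE; limma adjusted p = 0.00726, 6.63e-06 and 8.56e-12). Apol9b, the copy with the same promoter stretch, has no probe set of its own here, and whether the Apol9a probe set also reads it was not tested.

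Of the IFI-named and other intracellular proteins, 7 of 8 tested genes rose at 24 h and 6 at 12 h. Xaf1, a partner of the apoptosis inhibitor XIAP, gave 5.84, 5.77 and 5.76 at 0 h, 5.68 to 6.45 (median 5.89) from 1 to 8 h, 6.97, 6.66 and 6.29 at 12 h and 9.45, 9.71 and 9.55 at 24 h. Samd9l, which blocks poxvirus growth, gave 5.49, 5.73 and 5.67 at 0 h, 5.45 to 5.91 (median 5.58) from 1 to 8 h, 6.18, 6.19 and 6.10 at 12 h and 8.69, 8.91 and 8.37 at 24 h. Both genes were above the controls on every 12 and 24 h array. At 24 h Xaf1 was higher by 3.78 ± 0.13 and Samd9l by 3.03 ± 0.10 (SE; limma adjusted p = 3.99e-13 and 2.99e-13).

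The other risers of that group were Ifi27 (2.36 ± 0.09 SE), Tor3a (2.13 ± 0.13), Ifi35 (1.52 ± 0.08), Trafd1 (1.06 ± 0.09) and Epsti1 (0.75 ± 0.12) at 24 h. Epsti1 was not above background on any control array and on 2 of the 3 arrays at 24 h, so no fold is given. Ifi35 gave 8.20, 8.11 and 8.00 at 0 h, 7.83, 7.69 and 7.88 at 4 h and 9.59, 9.71 and 9.57 at 24 h. Its 4 h arrays lay below the controls and its 24 h arrays above, so that it fell by 0.31 ± 0.08 on the log2 scale at 4 h (SE, limma adjusted p = 0.0141), a call lost without control 0h replicate 1, control 0h replicate 2 or AICAR 4h replicate 2. Slfn2, which guards T cells from activation stress, did not rise. It gave 5.01, 5.01 and 5.32 at 0 h, 4.95 to 5.14 (median 5.09) from 1 to 8 h, 4.87, 5.11 and 5.14 at 12 h and 4.94, 5.05 and 5.15 at 24 h, overlapping near background (24 h difference -0.07 ± 0.09 SE, limma adjusted p = 0.631).

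**Figure D3:**
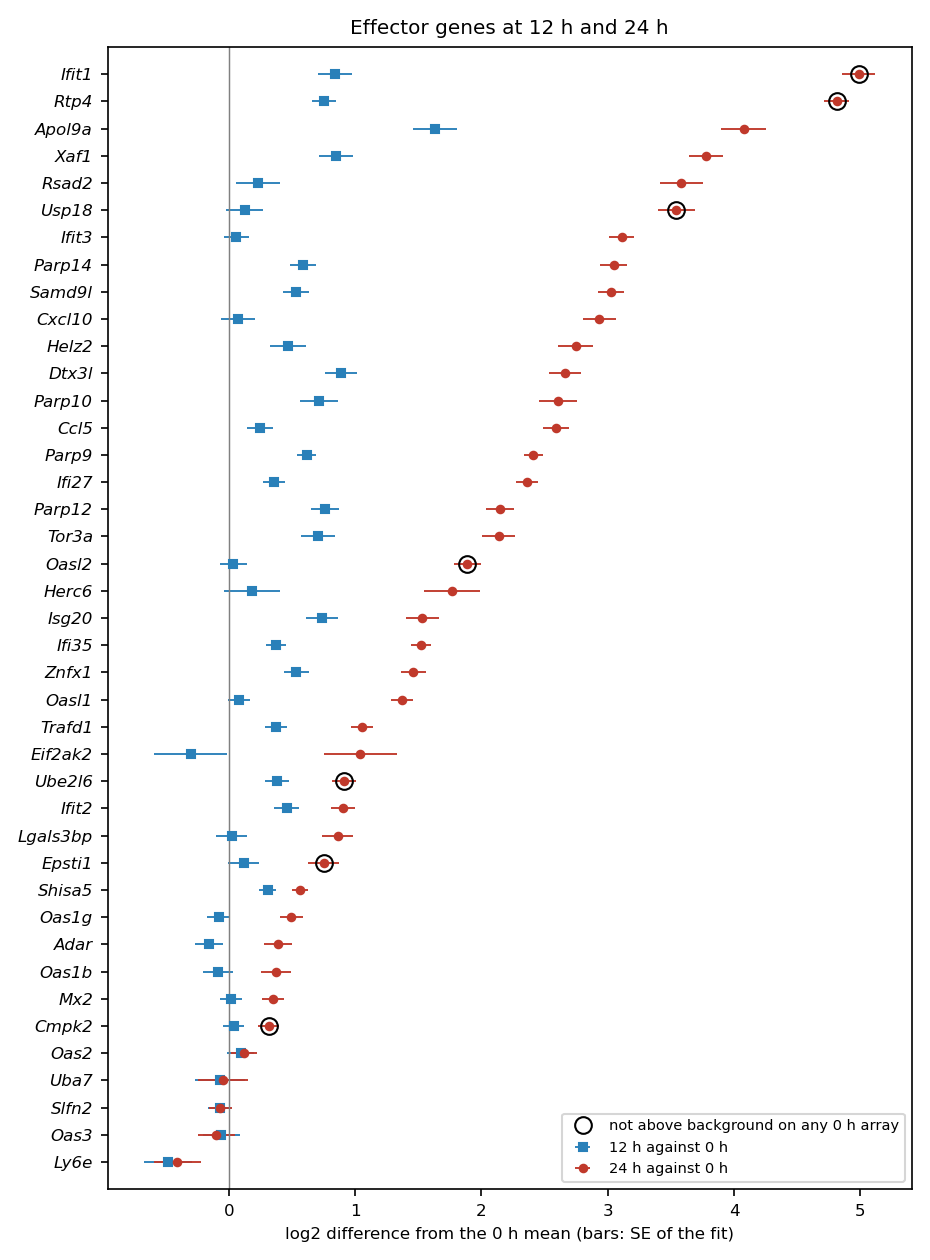
Log2 difference from 0 h at 12 h (blue squares) and 24 h (red circles) for the 41 tested effector genes, with bars of 1 SE from the limma fit. Open rings mark the 7 genes that were not above background on any 0 h array. These are drawn at the measured difference, which is larger than the lower bounds given in the text. For Epsti1 no fold is given. At 24 h the genes spread from -0.41 to 4.99, and at 12 h from -0.48 to 1.63 with Apol9a farthest right.

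The 6 rises at 8 h rested on few arrays, since that group has 2. They were Apol9a (0.90), Dtx3l (0.68), Parp10 (0.55), Ifit2 (0.48), Parp12 (0.46) and Trafd1 (0.34) on the log2 scale. None of the 6 was called without AICAR 8h replicate 1, a fit in which the lone 8 h array is assumed to vary like the other groups; Apol9a, Dtx3l and Ifit2 then differed by 0.74, 0.54 and 0.38. Of the 6, 3 were called without control 0h replicate 3. The call of Parp10 was lost without any 1 of the 5 arrays compared. The calls of the 3 genes at 4 h were likewise lost without single arrays, as given beside each. The counts at these times also moved with the settings. Array weights gave 10 rises and 12 falls at 4 h and 11 rises at 8 h. At 8 h quantile normalization gave 12 rises and median centring 3. The shares of all tested genes called under these settings are not given here. These counts therefore show how far the calls moved and no result about the effector genes.

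Of the 44 genes, 13 had more than 1 probe set of their own symbol, 30 probe sets in all, and these did not move alike. The probe set used above is the one with the highest mean. For Rsad2, Ifi27 and Shisa5 all probe sets were higher at 24 h, by 2.22 to 3.58, 2.36 to 2.81 and 0.52 to 0.56. For Xaf1, Rtp4, Parp14, Trafd1 and Epsti1 the second probe set stayed below background on the control arrays and moved by 0.33, 0.29, 0.12, 0.02 and 0.02, against 3.78, 4.81, 3.05, 1.06 and 0.75. Tor3a had 3, at 2.13, 1.49 and 0.82. The mean of the probe sets gave 2.55 for Rtp4, 2.05 for Xaf1 and 1.58 for Parp14.

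Besides Ifi27 (2.81 against 2.36 for the one used), another probe set differed more at 24 h than the one used for Cmpk2, Adar and Uba7. A second probe set of Cmpk2 went from 3.80 ± 0.07 at 0 h to 6.90 ± 0.39 at 24 h (SD, n = 3 each), a measured 3.1 ± 0.12 (SE) from controls below background. One of Adar went from 5.82 ± 0.06 to 7.0 ± 0.12, by 1.18 ± 0.10 (SE), and the remaining one moved by 0.48. The other probe sets of Uba7 moved by 0.46 ± 0.09 and 0.79 ± 0.11 (SE), where the one used moved by -0.05, and the mean of all 3 was 0.40 above the controls. The transcripts read by these probe sets were not known, and their single values were compared after they were seen and carry no call.

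**Figure D4:**
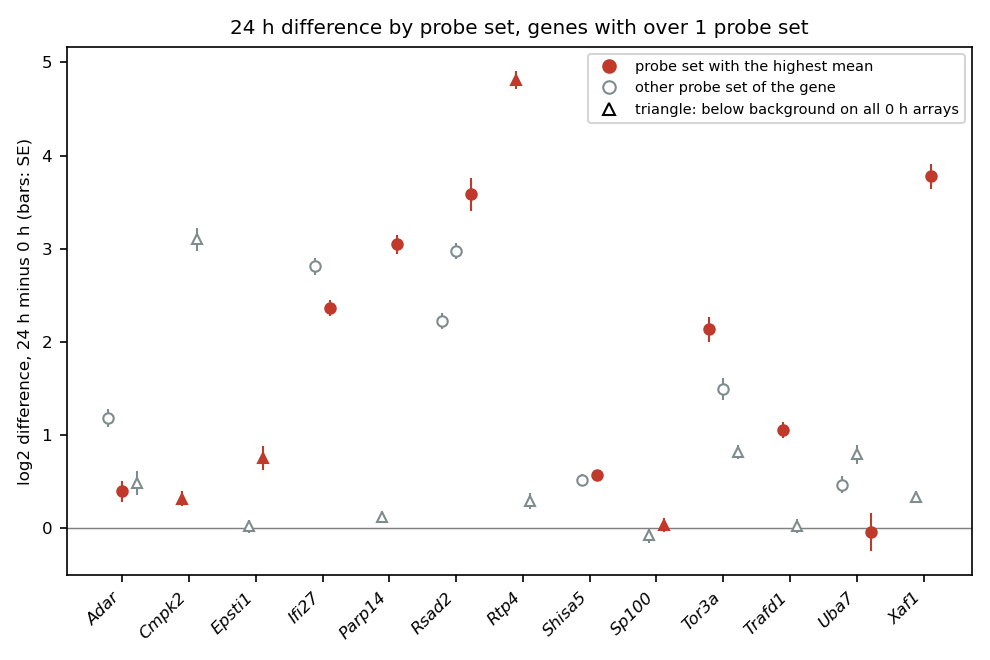
Log2 difference between 24 h and 0 h for the 30 probe sets of the 13 genes with more than 1, with bars of 1 SE; filled red symbols are the probe sets used elsewhere and triangles those below background on all 0 h arrays. Those of Ifi27, Rsad2 and Shisa5 lie above 0 together, while those of Cmpk2, Parp14, Rtp4 and Xaf1 are 2.79 to 4.53 apart.

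The genes upstream of the effectors were read as lists. Of 19 listed interferon genes 11 had a probe set and 6 were tested. None of the 6 was called by limma at any time, and 1, Ifna4 at 12 h, had an unadjusted p under 0.05. The untested genes with a probe set were above background on no array. Some of the tested ones were below background on every control array. Ifnb1 was at 4.95 ± 0.05 (SD, n = 3) at 0 h, below background on each control array and above it on 12 of the 20 arrays, and differed by 0.07 ± 0.09 (SE, limma adjusted p = 0.602) at 24 h. Ifna4 and Ifna7 differed by -0.18 ± 0.12 and -0.24 ± 0.20 (SE). Of 19 tested genes of the receptors and the JAK-STAT pathway, 11 rose and 1, Socs3, fell at 24 h, with a median of 0.31. Irf9 was higher by 2.31 ± 0.10, the receptor subunit gene Il10rb by 1.32 ± 0.09 and Stat2 by 1.10 ± 0.12 (SE; limma adjusted p = 1.35e-11, 5.4e-09 and 9.25e-07). Il10rb was called at 8 h already (0.67 ± 0.10, adjusted p = 0.000817), while Irf9 was first called at 24 h.

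Of 7 tested interferon regulatory factors 3 rose at 24 h, Irf5 by 1.19 ± 0.12, Irf7 by 0.64 ± 0.10 from below background, at least 1.5-fold, and Irf1 by 0.52. Irf1 was lower early, by -0.68 ± 0.11 at 1 h and -0.51 ± 0.11 at 2 h (SE; limma adjusted p = 0.00603 and 0.0271). Of 22 sensors of foreign nucleic acid and their adaptors 14 rose and 1, Dhx9, fell, with a median of 0.42. The RNA sensor genes Ifih1 and Ddx58 rose by 3.35 ± 0.11 and 1.96 ± 0.08 (SE; limma adjusted p = 1.37e-13 and 3.23e-12), and both were called at 8 h. Of 11 guanylate-binding proteins and immunity-related GTPases 9 rose, with a median of 1.33, among them Irgm2 (3.68, at least 9.65-fold) and Irgm1 (2.04). Of 15 genes of MHC class I antigen processing 12 rose, with a median of 0.90, among them Psmb8 (1.92) and Tapbp (1.28). The shares of each of these lists stand beside 25.8% of all tested genes, and no list was tested against another.

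Markers of other cell types were read as lists too. Of 12 macrophage and dendritic cell markers with a probe set, 5 were above background on all controls, while Ptprc, Lyz2, Adgre1, Itgam, Cd68 and Aif1 were on none. At 24 h 7 were above background on all arrays. The mean signal of the list was 4.91 to 4.96 in the controls and 4.92 to 5.05 at 24 h, and 1 of 8 tested, Cd68, rose at 24 h (1.08 ± 0.12 SE, at least 1.69-fold). Of 9 lymphocyte markers 1 was above background on all controls and 5 on all 24 h arrays, where the background was lower, and none was called at 24 h, also at an unadjusted p under 0.05 (limma), with a mean signal of 4.93 to 5.06 in the controls and 4.87 to 5.03 at 24 h. Of the epithelial and endothelial markers 4 of 8 and 2 of 8 were above background on all controls, and at 24 h 1 of each list was called, Krt19 (-0.28) and Kdr (-0.27). The mean signal of the epithelial list was 5.63 to 5.69 in the controls and 5.66 to 5.68 at 24 h, and that of the endothelial list 4.60 to 4.70 and 4.55 to 4.70. Of 12 tested fibroblast markers 1 rose (Postn, 0.84) and 3 fell at 24 h, where 25.8% of all tested genes rose and 14.6% fell. The mean signal of the fibroblast list was 7.69 to 7.76 in the controls and 7.64 to 7.79 at 24 h. The part of these markers in the effector gene results was not tested.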

How the data were processed

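The deposited values are log2 signals of 45141 probe sets on 20 arrays, read from the authors' table. How the authors corrected, summarised and normalized them was not given in the sources used here. No array was renormalized for the main fit, and values were renormalized only in alternatives named below. The labels name the extraction kit and the biotin labelling, and the groups come from the labels. Of the probe sets, 104 are array controls, 28898 carry 1 gene symbol, 551 several and 15692 none in the annotation used. Symbols were updated through gene identifiers with the GRCm38.p6 RefSeq table. The probe set with the highest mean stood for a gene, and a gene was tested where its highest group mean exceeded 4.81, the 40th percentile over all arrays; 4153 of 17097 genes were not.

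Each time was compared with 0 h, and 24 h with 12 h, in a single fit over all arrays with limma 3.58.1 in R 4.3.3 (lmFit and eBayes, 13 residual degrees of freedom, two-sided), with p-values adjusted by Benjamini-Hochberg across the 12944 tested genes and a threshold of 0.05. The fit was tested on simulated data with noise drawn independently for each array. That test does not cover arrays that deviate together. Differences are between group means of log2 values; the number of arrays limits their precision. Levels of different probe sets are not compared. No protein sequences were used here. Figures were drawn with matplotlib 3.10.9.

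The 50 genes, their role groups and the lists of related genes and cell type markers were chosen with earlier results of these data known. Values on each array are given for the genes with the largest and second largest 24 h difference in each role group, for up to 6 genes called at 1, 2, 4 or 8 h, and for those with no called rise at 24 h; Ifi35, Znfx1 and Eif2ak2 were added after their values were seen. Of each related list the 2 genes with the largest t at 24 h are named, with Ifnb1, Stat2, Irf7, Irf9, Prkaa1 and Prkaa2; others named there (Socs3, Dhx9, Irf1, Cd68, Krt19, Kdr, Postn) were picked once their values had been seen. An item of the lists is not reported here. The comparisons of 24 h with 4 h, and of single probe sets, were also added after the values were seen. Alternatives tried were quantile normalization, median centring, no filter, the mean of all probe sets, no _x_ or _s_ probe sets, a variance model with trend and robustness, weights per array, a block by replicate number, the compared groups alone, a 2-fold minimum and leaving out each array.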

Additional observations from a re-analysis of the deposited data

Results flagged for a closer look

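Cxcl10 and Ifi35 moved in opposite directions early and late. Cxcl10 was 0.48 below the controls at 4 h and 2.93 above them at 24 h, and the 24 h arrays stood 3.42 ± 0.13 (SE) above those of 4 h on the log2 scale. Ifi35 was 0.31 below the controls at 4 h and 1.52 above at 24 h, and its difference between 24 and 4 h was 1.83 ± 0.08 (SE). These genes were picked for their opposite directions at 4 and 24 h, so the differences between 24 and 4 h are descriptions and carry no test. Both 4 h falls were lost without single arrays.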

How the results depend on the processing

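At 24 h against 0 h, 34 of the 36 member calls passed under all alternatives that set no fold minimum and leave out no array; Adar was lost with quantile normalization and Epsti1 with the mean of all probe sets. The count of rises lay between 35 and 36 without single arrays. The median difference lay between 1.48 and 1.64 at 24 h and between 0.25 and 0.30 at 12 h in those fits. From 12 to 24 h, 23 of the 36 rises were at least 2-fold as measured, where 72 of all 12944 tested genes rose so far. At 12 h 1 of the 20 was, where 60 of the 12944 were. Array weights gave 10 rises and 12 falls at 4 h, 11 rises at 8 h and 1 fall at each of 2, 12 and 24 h. Quantile normalization gave 12 rises at 8 h and 1 fall at 12 and at 24 h, median centring 3 rises at 8 h, and no filter 1 fall at 12 and at 24 h. The fit of the compared groups alone gave 0 rises and 1 fall at 4 h and 1 fall at 24 h. With a 2-fold minimum there were 0 rises and 0 falls at 4 h and 0 rises at 8 h. Without single arrays the counts ranged from 0 to 1 rises and 0 to 2 falls at 4 h, 0 to 6 rises at 8 h, 19 to 20 rises and 0 to 1 falls at 12 h, and 33 to 36 rises from 12 to 24 h. With the mean of all probe sets Uba7 was 0.40 above the controls at 24 h. Ly6e passed as a fall at 24 h with quantile normalization (-0.45), array weights (-0.44) and the compared groups alone (-0.41), and at 12 h with quantile normalization (-0.49), array weights (-0.46) and without AICAR 12h replicate 2 (-0.72). The cause of these changes was not tested, and the shares of all tested genes called under these settings are not given here.

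With the replicate number of the labels as a block (replicate block), the 24 h count stayed at 36 rises, with 1 fall, Ly6e (-0.41). There were 11 rises at 8 h, 5 falls at 4 h, and 1 fall at 2 h and at 12 h. The shares of all tested genes called in that fit are not given here either. Of 57 pairs of arrays with the same number, 39 correlated above 0.1 in their deviations from the group means (-0.46 to 0.79, median 0.32), against 36 of 114 pairs with different numbers (median -0.17). Arrays of the same number thus deviated together more often, but not in every pair, and the labels do not say what a number shares, so the numbers were not taken as pairing the samples. Array number and, for 10 of the 44 genes, signal at or below background on the control arrays limit what can be seen.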
